A study of Mus musculus with 8 samples.

Results

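The enzymes that write, erase and read the chemical marks of chromatin were examined in the livers of mice lacking SIRT7, itself a deacetylase of histones. A list of 42 genes was followed, which holds histone deacetylases, acetyltransferases, methyltransferases and demethylases, the DNA methyltransferases, a pair of acetyl-lysine readers and a pair of subunits of the SWI/SNF remodelling complex. A gene counted as measured where the array had a probe set annotated to that gene alone, and where it had several, the brightest over all arrays stood for the gene. By this rule 30 of the 42 genes were measured, with 58 probe sets, out of 12393 genes and 22626 probe sets on the array. The other 12 were Hdac4, Hdac8, Hdac10, Kat5, Kat8, Ep300, Setd2, Ehmt1, Suv39h1, Kdm2a, Kdm4a and Kdm6b.

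Acetylation of histone tails loosens chromatin and is read by bromodomain proteins, and deacetylases take it away. Methylation of histones can mark either active or silent genes, depending on the residue, and methylation of DNA at CpG sites is mostly linked to silencing. SIRT7 belongs to the sirtuins, whose catalysis needs NAD, whereas the classical deacetylases Hdac1 to Hdac11 use zinc. In liver these enzymes serve as cofactors of the transcription factors that set metabolic programs.

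Total RNA was taken from the livers of 4 SIRT7 KO mice and 4 WT mice and hybridised to Affymetrix GeneChip mouse arrays, with 1 array a mouse. The genotype is the only difference that the labels state. Neither the age and litter of each animal nor the batch of each array is given in the sources used here, and whether SIRT7 was lost in the liver alone or in all tissues is not stated in the labels. P-values therefore test a difference against the spread between these 8 samples. In limma that spread is moderated by the spread over all probe sets. Values are log2 expression, on which 1 unit is a 2-fold difference, and every difference is SIRT7 KO minus WT with the standard error (SE) of the limma fit. Calls were made where the adjusted p was below 0.15, since the study's methods control false discovery at 15%.

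Sirt7 itself was read first as a check of the labels. The Sirt7 probe set stood at 4.73, 4.53, 4.40 and 4.90 in the SIRT7 KO livers, against 8.98, 8.97, 8.88 and 8.57 in the WT livers. The genotypes lay far apart, with a difference of -4.21 ± 0.13 (SE) and a limma adjusted p of 9.2e-07. The SIRT7 KO values sat around 4.55, the mean lower quartile of the arrays, so the background of the array bounds the difference.

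The arrays were alike in their overall signal, with medians between 6.31 and 6.37 and a median correlation with the other arrays of the same genotype between 0.990 and 0.994. Hepatocyte markers were high in both genotypes, with a mean of 14.83 to 14.94 over 4 markers in the SIRT7 KO livers and 14.92 to 14.98 in the WT livers. The spiked control RNAs gave less signal in the SIRT7 KO samples, a mean of 8.52 ± 0.098 against 8.68 ± 0.063 on the WT arrays (SD, n = 4 each, exact two-sided permutation p = 0.0286, the smallest that 4 against 4 arrays allow). The 3′ minus 5′ signal of the GAPDH control, a measure of RNA and labelling quality, averaged 0.11 ± 0.082 on the SIRT7 KO arrays and 0.22 ± 0.055 on the WT arrays (SD, n = 4 each, exact permutation p = 0.0286). For the actin control this signal overlapped, at 1.29 to 1.63 on the SIRT7 KO arrays and 1.58 to 1.64 on the WT arrays (exact permutation p = 0.257). The part of these control signals in the differences given here was not tested.

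Most of the chromatin enzymes differed little between SIRT7 KO and WT livers. Of the 30 measured genes, 1 was called, Suz12, which was lower, and none was called higher, where limma called 4.65% of all genes, 2.48% lower and 2.17% higher. Differences of the 30 genes ran from -0.36 for Kdm5a to 0.40 for Hdac9. The whole 95% interval lay within 0.5 of no difference for 24 genes (80.0%, against 82.1% of all genes). The exceptions were Hdac9, Hdac11, Brd2, Kdm5a, Dnmt3b and Smarca4, whose intervals reached to between -0.605 and 0.742 at the furthest.

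Small negative differences were more common than positive ones among the 30 genes. The difference was negative in 19 genes and positive in 11, which makes 63.3% negative against 50.7% of all genes, and the median was -0.099 against -0.0031 over all genes. At an unadjusted p under 0.05, 8 genes were lower and 1, Hdac9, was higher, which is 9 of 30 where all genes gave 15.6%, 8.72% lower. The genotypes did not overlap in 4 genes (13.3%), Suz12, Eed, Kat2b and Hdac1, all lower in the SIRT7 KO livers, beside 9.8% of all genes, 5.7% lower and 4.1% higher. The median over the 30 genes, taken on each array relative to the WT mean, was -0.068, -0.051, -0.039 and -0.152 on the SIRT7 KO arrays, against 0.061, -0.0067, 0.0027 and -0.076 on the WT arrays. WT array 4 thus lay among the SIRT7 KO arrays. The same median over all genes stayed between -0.015 and 0.012 on every array. In whole liver, fewer cells of a type and less RNA per cell cannot be told apart.

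**Figure D1:**
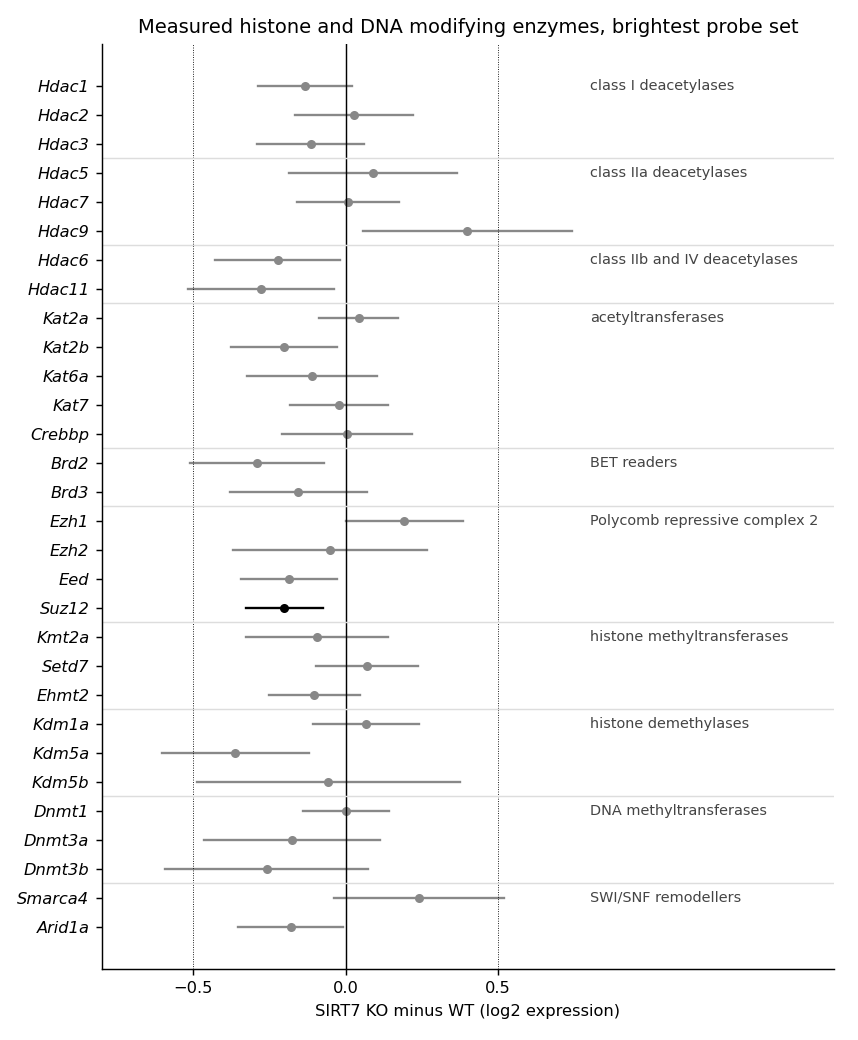
Difference in log2 expression (SIRT7 KO minus WT) of each of the 30 measured enzymes and readers by the brightest probe set, grouped by role, with points for the estimate and bars for the 95% interval of the limma fit (4 arrays a genotype). The gene in black, Suz12, is called, the dotted lines stand at 0.5 either side of 0, and the points run from -0.36 for Kdm5a to 0.40 for Hdac9.

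Deacetylases of histones were measured for 8 of 11 listed genes, and none was called by limma. At an unadjusted p under 0.05 there were 3, Hdac6 and Hdac11 with negative and Hdac9 with positive differences. The differences split evenly, 4 negative and 4 positive. Class I holds the nuclear enzymes of the large corepressor complexes. Among them Hdac1 stood at 7.48, 7.65, 7.69 and 7.64 in the SIRT7 KO livers, against 7.70, 7.80, 7.73 and 7.77 in the WT livers. The genotypes did not overlap, but by a gap of 0.011 only, and the difference of -0.13 ± 0.068 (SE) had an adjusted p of 0.408. Hdac2, its close paralog and partner in the same complexes, differed by 0.028 (adjusted p = 0.919). Hdac3, the catalytic subunit of the nuclear receptor corepressor complexes, differed by -0.12 (adjusted p = 0.553).

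The class IIa enzymes shuttle between nucleus and cytoplasm under the control of kinases. Hdac9 was the gene with the greatest positive difference among the 30, at 0.40 ± 0.15 (SE). Its values were 4.79, 4.68, 4.43 and 4.50 in the SIRT7 KO livers and 3.82, 4.08, 4.54 and 4.36 in the WT livers. The genotypes overlapped, all values lay near the lower quartile of all probe sets, and the adjusted p was 0.263. Hdac5 and Hdac7 differed by 0.088 (adjusted p = 0.804) and 0.0063 (adjusted p = 0.981).

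Hdac6, a mostly cytoplasmic enzyme that deacetylates tubulin, stood at 7.46, 7.62, 7.37 and 7.25 in the SIRT7 KO livers, against 7.71, 7.74, 7.57 and 7.56 in the WT livers. Only SIRT7 KO array 2 reached into the WT range, and the difference was -0.22 ± 0.091 (SE, adjusted p = 0.290). Hdac11, the single class IV enzyme, which removes long acyl groups as well, stood at 8.08, 7.94, 7.67 and 7.69 in the SIRT7 KO livers and at 8.20, 8.25, 8.02 and 8.04 in the WT livers. SIRT7 KO array 1 lay within the WT range and the other SIRT7 KO arrays below it, with a difference of -0.28 ± 0.11 (SE, adjusted p = 0.262). A second probe set of Hdac11 differed by -0.21 (adjusted p = 0.447).

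Acetyltransferases were measured for 5 of 8 listed genes, with none called by limma and 1, Kat2b, at an unadjusted p under 0.05. Kat2b, known as PCAF, is a coactivator that acetylates histone H3. It stood at 11.50, 11.50, 11.45 and 11.28 in the SIRT7 KO livers, against 11.75, 11.54, 11.61 and 11.65 in the WT livers. Every SIRT7 KO array lay below every WT array, by a gap of 0.037, and the difference was -0.20 ± 0.077 (SE, adjusted p = 0.256). For a second probe set of Kat2b the genotypes overlapped (-0.35, adjusted p = 0.380). Kat2a, the paralog of Kat2b known as GCN5, differed by 0.042 (adjusted p = 0.798). Crebbp, the CREB-binding protein that serves many transcription factors, differed by 0.0033 (adjusted p = 0.992), with a 95% interval of -0.21 to 0.22. Kat6a and Kat7, of the MYST family, differed by -0.11 (adjusted p = 0.649) and -0.022 (adjusted p = 0.922).

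The BET proteins Brd2 and Brd3 bind acetylated histones through paired bromodomains and help transcription to elongate. Brd2 stood at 9.80, 9.75, 9.72 and 9.65 in the SIRT7 KO livers, against 10.12, 10.21, 9.77 and 9.98 in the WT livers. WT array 3 fell within the SIRT7 KO range and the other WT arrays above it. The difference of -0.29 ± 0.10 (SE) had an adjusted p of 0.209, and in the 8 fits that left out 1 array it was 0.0955 without WT array 3 and 0.242 to 0.384 in the other 7. For a second probe set of Brd2 the genotypes overlapped as well, with a smaller difference (-0.13, adjusted p = 0.530).

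Brd3 differed between its probe sets. The brightest stood at 7.95, 7.74, 7.76 and 7.77 in the SIRT7 KO livers and at 7.99, 8.02, 8.13 and 7.70 in the WT livers, which overlap (-0.16 ± 0.10 SE, adjusted p = 0.528). The probe set 1460328_at stood at 7.76, 7.53, 7.68 and 7.66 in the SIRT7 KO livers, against 8.06, 8.06, 8.01 and 7.88 in the WT livers. Here the genotypes were apart and the probe set was called lower (-0.34 ± 0.074 SE, adjusted p = 0.0757), but it passed in only 4 of the 8 fits that left out 1 array, with adjusted p up to 0.198. The third probe set of Brd3 differed by -0.067 (adjusted p = 0.823).

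**Figure D2:**
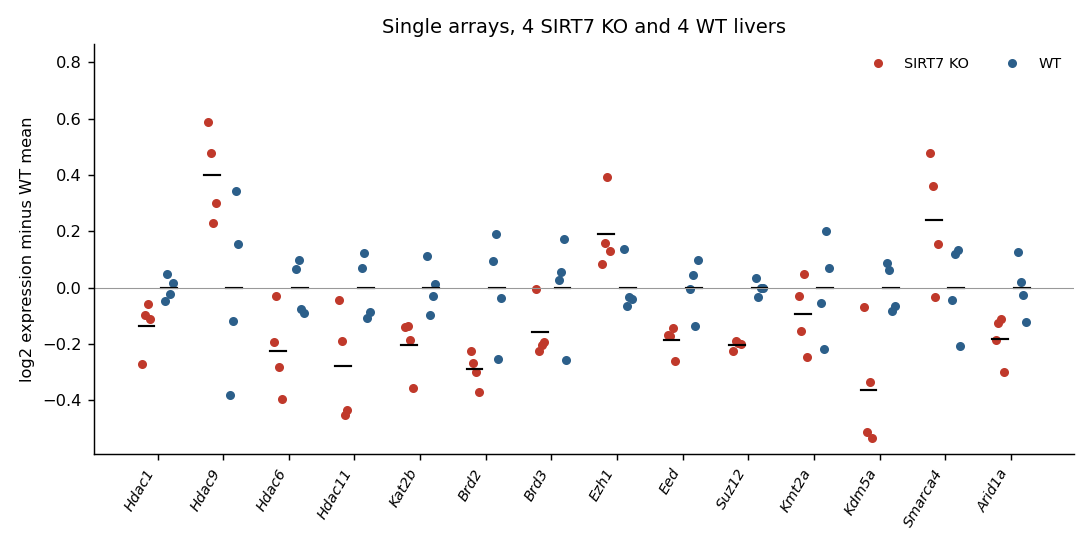
Log2 expression minus the WT mean on single arrays (SIRT7 KO left of WT, 4 arrays each) for the brightest probe set of 14 genes that have a called probe set, that do not overlap between genotypes or that are among the 12 with the smallest p. Black lines are group means; for Suz12 every SIRT7 KO point lies below every WT point by a gap of 0.16, whereas for Hdac9 and Kdm5a the points spread over a wider range and overlap.

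Polycomb repressive complex 2 places a repressive methyl mark on histone H3. Its catalytic subunit is Ezh2, or Ezh1 in cells that no longer divide, and Eed and Suz12 are needed for its activity. All 4 were measured. Suz12 fell by 0.20 ± 0.056 (SE) in the SIRT7 KO livers, a decrease of 13.0%. It stood at 8.58, 8.62, 8.61 and 8.61 in the SIRT7 KO livers, against 8.84, 8.77, 8.80 and 8.80 in the WT livers. The spread within each genotype was small (SD 0.016 and 0.027, n = 4 each) beside the gap of 0.16 between them. The limma adjusted p was 0.136, under the threshold of 0.15 by little, and it passed in none of the 8 fits that left out 1 array (adjusted p of 0.184 to 0.290). The call was also lost after quantile normalization (-0.17, adjusted p = 0.199), after centring the arrays (-0.21, adjusted p = 0.161), with a variance trend (adjusted p = 0.165) and just so for the mean of its probe sets (-0.18).

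The other probe sets of Suz12 ran the same way. The probe set 1452364_at stood at 7.23, 7.41, 7.34 and 7.14 in the SIRT7 KO livers, against 7.63, 7.59, 7.53 and 7.50 in the WT livers. It was called as well, at -0.28 ± 0.075 (SE, adjusted p = 0.128), and passed in 2 of the 8 fits that left out 1 array. The probe set 1427253_s_at stood at 7.85, 7.94, 7.93 and 7.74 in the SIRT7 KO livers and at 8.29, 8.08, 8.09 and 8.08 in the WT livers, apart but just past the threshold (-0.27 ± 0.078 SE, adjusted p = 0.151). The 3 dimmer probe sets, 2 of them below the lower quartile of the array, differed by -0.061, -0.14 and -0.15 with adjusted p between 0.358 and 0.864. Probe sets of a gene read the same RNA on the same arrays and are not independent replicates. The "_s" in a probe set's name marks probes that may be shared between related transcripts, which holds for the brightest probe set of Suz12.

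The promoter of Suz12 is shown because Suz12 was the only gene of the list called by its brightest probe set. The 250 bases before its start, at chr11:79992856-79993105 on the plus strand (GRCm38.p6, RefSeq), are given 5′ to 3′ with GC boxes (GGGCGG, or CCGCCC on the other strand) and the CCAAT box (CCAAT or ATTGG) in capitals.
Suz12 promoter: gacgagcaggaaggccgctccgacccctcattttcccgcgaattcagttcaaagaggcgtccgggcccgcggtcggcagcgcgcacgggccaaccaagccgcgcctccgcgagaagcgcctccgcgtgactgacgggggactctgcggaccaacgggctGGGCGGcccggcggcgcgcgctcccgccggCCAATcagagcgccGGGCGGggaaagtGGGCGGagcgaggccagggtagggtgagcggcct
This window held 3 GC boxes and 1 CCAAT box, both common elements of promoters in CpG islands. A GC box was found in 32.7% of the 32851 promoter windows of the RefSeq table and in 17 of the 26 measured genes of the list that the table holds. A CCAAT box was found in 33.8% of all windows and in 9 of the 26. A gene of the list counted where any of its windows held the letters, whereas the percentages count single windows. The counts of genes and the percentages are thus not like measures. These matches are a description of the letters only.

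Eed, the subunit that recognises the methyl mark once it is placed, stood at 9.19, 9.19, 9.22 and 9.10 in the SIRT7 KO livers, against 9.36, 9.40, 9.22 and 9.46 in the WT livers. The genotypes were apart by 0.0075 only, and the difference was -0.19 ± 0.070 (SE, adjusted p = 0.257). For a second probe set of Eed, below the lower quartile of the array, they overlapped (-0.068, adjusted p = 0.756). For the catalytic subunits the values overlapped. Ezh1 stood at 7.55, 7.62, 7.85 and 7.59 in the SIRT7 KO livers and at 7.60, 7.40, 7.43 and 7.42 in the WT livers, with a difference of 0.19 ± 0.085 (SE, adjusted p = 0.336), while its second probe set differed by -0.10 (adjusted p = 0.805). Ezh2, which is bound to dividing cells, stood at 6.18, 6.35, 6.13 and 5.83 in the SIRT7 KO livers and at 6.16, 6.38, 6.31 and 5.83 in the WT livers (-0.051, adjusted p = 0.909). Markers of cycling cells overlapped as well, with a mean over 9 genes of 5.99 to 6.72 in the SIRT7 KO livers and 5.69 to 6.61 in the WT livers.

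Partners of the Polycomb complexes came from a list of 25 genes, of which 20 were measured. Rbbp4, a histone-binding protein that Polycomb repressive complex 2 shares with deacetylase and chromatin assembly complexes, was the only one called. It stood at 11.21, 11.41, 11.52 and 11.39 in the SIRT7 KO livers, against 11.71, 11.59, 11.69 and 11.66 in the WT livers, and fell by 0.28 ± 0.078 (SE, adjusted p = 0.136). All 3 of its probe sets were without overlap, and the other two differed by -0.27 (adjusted p = 0.153) and -0.22 (adjusted p = 0.257). The call held in 1 of the 8 fits that left out 1 array, with adjusted p up to 0.284. Its paralog Rbbp7 differed by 0.024 (adjusted p = 0.908).

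The genotypes did not overlap in 6 of the 20 partners, all lower in the SIRT7 KO livers, beside 5.7% of all genes with no overlap in that direction. Besides Rbbp4 these were Rnf2, the ubiquitin ligase of Polycomb repressive complex 1 (-0.28, adjusted p = 0.180), Pcgf6, a subunit of a variant of that complex (-0.21, adjusted p = 0.269), and the accessory subunits of Polycomb repressive complex 2 Jarid2 (-0.27, adjusted p = 0.151), Mtf2 (-0.23, adjusted p = 0.196) and Phf1 (-0.24, adjusted p = 0.289). A second probe set of Mtf2 was called lower (-0.33 ± 0.087 SE, adjusted p = 0.126) and passed in 1 of those 8 fits. However, the median over the 20 partners was -0.043, with 11 negative and 9 positive, and the accessory subunits Phf19 and Aebp2 differed by 0.075 (adjusted p = 0.699) and -0.063 (adjusted p = 0.754). None of these counts was given a test of its own.

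**Figure D3:**
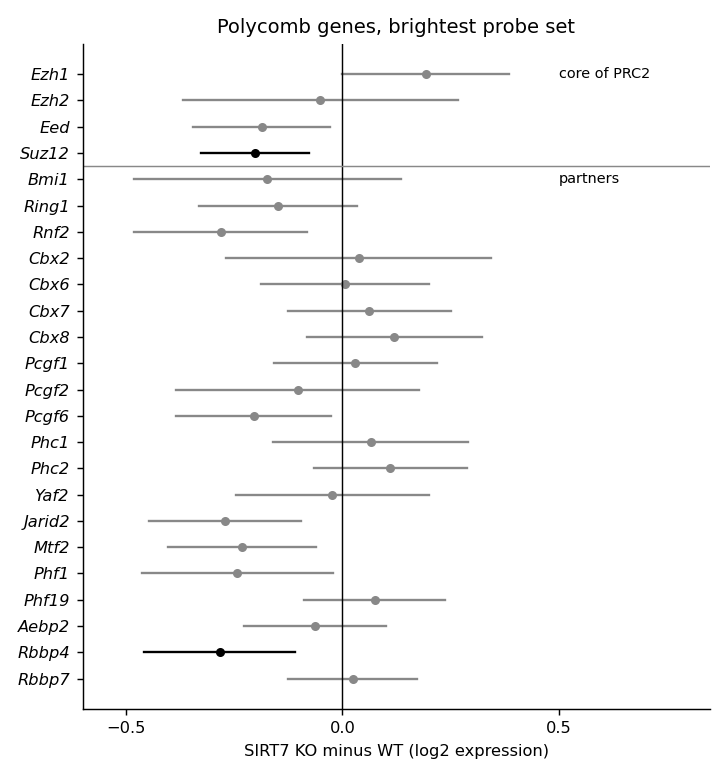
Difference in log2 expression (SIRT7 KO minus WT) of the 4 core subunits of Polycomb repressive complex 2 and of 20 Polycomb partners by the brightest probe set, with points for the estimate and bars for the 95% interval of the limma fit (4 arrays a genotype). Suz12 (-0.20) and Rbbp4 (-0.28) are the called genes; Rnf2, Jarid2, Mtf2 and Phf1 lie at -0.28 to -0.23, and 9 partners lie above 0.

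Histone methyltransferases outside Polycomb were measured for 3 of 6 listed genes, none of them called by the brightest probe set and none at an unadjusted p under 0.05. Kmt2a, known as MLL1, methylates histone H3 at active genes. Its brightest probe set stood at 6.90, 6.77, 6.98 and 6.68 in the SIRT7 KO livers and at 6.87, 6.71, 7.13 and 7.00 in the WT livers, which overlap (-0.095 ± 0.10 SE, adjusted p = 0.737). The probe set 1452377_at stood at 5.87, 5.90, 6.13 and 5.97 in the SIRT7 KO livers, against 6.27, 6.32, 6.41 and 6.36 in the WT livers. It was called lower at -0.37 ± 0.076 (SE, adjusted p = 0.0669) and passed in 6 of the 8 fits that left out 1 array, more than any other probe set of the list. The probe sets of Kmt2a thus gave different calls, and which of them follows the gene was not tested. Ehmt2, known as G9a, a writer of repressive methyl marks on histone H3, differed by -0.10 (adjusted p = 0.528). Setd7 stood below the lower quartile in both genotypes (4.13 ± 0.082 in the SIRT7 KO livers and 4.07 ± 0.10 in the WT livers, SD, n = 4 each).

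In the wider list of 32 histone methyltransferases and their partners, 20 were measured. Kmt2c, a relative of Kmt2a that acts at enhancers, was called lower (-0.32 ± 0.084 SE, adjusted p = 0.128), with 7.11, 7.04, 7.05 and 6.82 in the SIRT7 KO livers against 7.19, 7.34, 7.34 and 7.41 in the WT livers. The genotypes did not overlap, but the call was lost in all 8 fits that left out 1 array. Smyd2, a lysine methyltransferase, had the next smallest p by the brightest probe set (0.30, adjusted p = 0.271). All 3 probe sets of Setd4, of the SET domain family, had negative differences. The brightest differed by -0.52 (adjusted p = 0.333) and the next by -0.43 (adjusted p = 0.211), while the dimmest was called lower at -0.73 ± 0.20 (SE, adjusted p = 0.136) and passed in 1 of the 8 fits that left out 1 array. Of 9 arginine methyltransferases 7 were measured and none was called by limma, with 1 at an unadjusted p under 0.05, Prmt6 (0.30, adjusted p = 0.275), followed by Prmt2 (0.16, adjusted p = 0.519).

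Histone demethylases were measured for 3 of 6 listed genes, with none called by limma and 1 at an unadjusted p under 0.05. Kdm5a, which takes methyl groups off histone H3 at active promoters, came closest, with the most negative difference of the 30 genes. It stood at 7.70, 7.25, 7.43 and 7.23 in the SIRT7 KO livers, against 7.85, 7.82, 7.68 and 7.70 in the WT livers. SIRT7 KO array 1 reached the WT range, and the difference of -0.36 ± 0.11 (SE) had an adjusted p of 0.162. In the 8 fits that left out 1 array, the adjusted p was 0.0871 without SIRT7 KO array 1 and 0.188 to 0.325 in the other 7. Kdm5b, of the same family, differed by -0.058 (adjusted p = 0.924) with the widest spread of the 30 genes in the SIRT7 KO livers (SD 0.38, n = 4), and Kdm1a, a flavin-dependent demethylase, differed by 0.065 (adjusted p = 0.760). Of 20 other demethylases 18 were measured and none was called, with 2 at an unadjusted p under 0.05, Jmjd6 (-0.28, adjusted p = 0.221) and Riox1 (-0.25, adjusted p = 0.227).

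The DNA methyltransferases were all measured and none was called by limma by the brightest probe set, nor was any at an unadjusted p under 0.05. Dnmt1, which copies DNA methylation after replication, was the gene nearest to no difference. It stood at 7.56, 7.58, 7.60 and 7.58 in the SIRT7 KO livers and at 7.64, 7.56, 7.64 and 7.47 in the WT livers, with a 95% interval of -0.14 to 0.14. The enzymes that place new methyl groups had negative differences. For Dnmt3a the brightest probe set differed by -0.18 ± 0.13 (SE, adjusted p = 0.581), and its 5 probe sets ran from -0.44 to 0.029, none of them called. The probe set at -0.44, 1423065_at, stood at 5.82, 5.62, 5.71 and 5.59 in the SIRT7 KO livers, against 6.33, 6.47, 5.84 and 5.85 in the WT livers, apart by 0.018 with an adjusted p of 0.211. Dnmt3b differed by -0.26 ± 0.15 (SE, adjusted p = 0.468), with WT values from 5.82 to 6.58 that spanned most of the SIRT7 KO range of 5.75 to 6.11. None of the 11 measured genes of DNA demethylation and methyl-CpG reading, of 16 listed, was called by limma or had an unadjusted p under 0.05, and the smallest p belonged to the stress gene Gadd45b (0.28, adjusted p = 0.484) and the reader Mbd1 (-0.56, adjusted p = 0.523).

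Of the SWI/SNF remodelling complex, which uses ATP to move nucleosomes, the list holds the ATPase Smarca4, known as BRG1, and the large subunit Arid1a. Smarca4 stood at 9.07, 8.96, 8.56 and 8.75 in the SIRT7 KO livers and at 8.55, 8.71, 8.73 and 8.39 in the WT livers, with overlap (0.24 ± 0.12 SE, adjusted p = 0.415), and its second probe set differed by -0.083 (adjusted p = 0.614). Arid1a stood at 8.25, 8.31, 8.33 and 8.14 in the SIRT7 KO livers, against 8.57, 8.46, 8.41 and 8.32 in the WT livers. Only WT array 4 reached the SIRT7 KO range, and the difference was -0.18 ± 0.076 (SE, adjusted p = 0.310). A dimmer probe set of Arid1a had no overlap (-0.21, adjusted p = 0.225). Of 18 other subunits 16 were measured and none was called by the brightest probe set, with 1 at an unadjusted p under 0.05, Phf10 (-0.21, adjusted p = 0.215), followed by Smarce1 (-0.22, adjusted p = 0.370).

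Across all probe sets of the list, 4 of 58 were called lower (6.90%) and none higher, where 4.31% of all probe sets on the array were called, 2.39% lower and 1.92% higher. These were 2 probe sets of Suz12 and those of Brd3 and Kmt2a given above. There was no overlap in 11 probe sets, all lower in the SIRT7 KO livers (19.0%, against 9.35% of all probe sets, 5.56% lower and 3.79% higher). At an unadjusted p under 0.05, 15 were lower and 1 was higher, beside 14.9% of all probe sets, 8.43% lower. The difference was negative in 42 and positive in 16, where 50.8% of all probe sets were negative. Of the 19 genes with several probe sets, 14 had the same sign in all, and Kat2a, Ezh1, Kdm5b, Dnmt3a and Smarca4 had mixed signs.

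**Figure D4:**
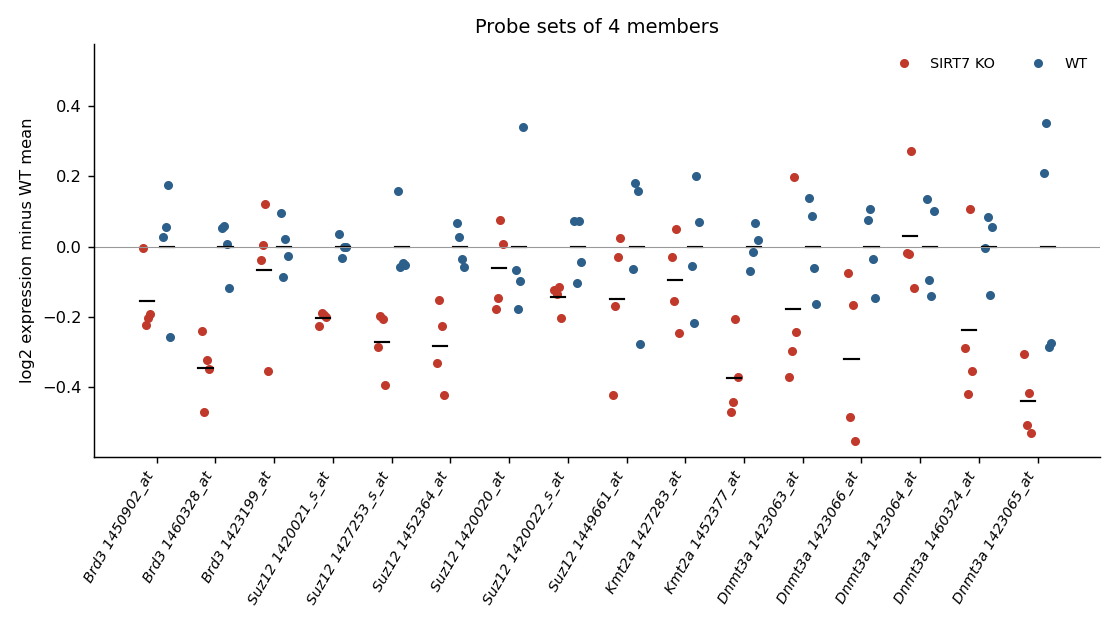
Log2 expression minus the WT mean on single arrays (SIRT7 KO left of WT, 4 arrays each) for every probe set of Brd3, Suz12, Kmt2a and Dnmt3a, with black lines for group means. Of the 3 probe sets of Brd3 and the pair of Kmt2a, 1 each has all SIRT7 KO points below all WT points, whereas the 3 brightest probe sets of Suz12 all do.

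In the wider lists of chromatin genes, which include Sirt7, the gene knocked out, 138 of 181 were measured. Of these, 4 were called, all lower in the SIRT7 KO livers (2.90%, against 4.65% of all genes, 2.48% lower). These were Sirt7 itself, Rbbp4 and Kmt2c, given above, and Ing3, a reader subunit of the NuA4 acetyltransferase complex (-0.38 ± 0.11 SE, adjusted p = 0.142), whose call held in 2 of the 8 fits that left out 1 array. The genotypes overlapped for Ing3, and its other probe sets were not called (-0.16, adjusted p = 0.341, and -0.21, adjusted p = 0.556). The genotypes did not overlap in 17 of the 138 genes (12.3%), all lower, beside 9.8% of all genes, 5.7% lower and 4.1% higher. Among 15 measured of 17 other acetyltransferase genes, Naa60 had the next smallest p after Ing3 (-0.22, adjusted p = 0.166). Of 13 other bromodomain proteins 8 were measured and none was called by the brightest probe set, with 1 at an unadjusted p under 0.05, the corepressor Trim28 (-0.22, adjusted p = 0.198), followed by Bptf (-0.20, adjusted p = 0.356). The partners of the deacetylases, with 18 of 24 measured, had none called by the brightest probe set and 5 at an unadjusted p under 0.05, among them the NuRD subunits Gatad2b (-0.32, adjusted p = 0.162) and Chd4 (-0.20 by its brightest probe set, adjusted p = 0.271). Over all 262 probe sets of the wider lists, 13 were called, all lower (4.96%, against 4.31% of all probe sets on the array, 2.39% lower). Besides the brightest probe sets of the 4 genes, these were 9 dimmer ones, 1 each of Mtf2, Setd4, the bromodomain proteins Baz1b (-0.50, adjusted p = 0.0941) and Baz2a (-0.25, adjusted p = 0.136), the SWI/SNF ATPase Smarca2 (-0.47, adjusted p = 0.130) and the deacetylase partners Chd4, Arid4b (-0.42, adjusted p = 0.0653), Tbl1x (-0.59, adjusted p = 0.0785) and Suds3 (-0.23, adjusted p = 0.144). That of Chd4, the ATPase of the NuRD complex, stood at 7.85, 7.62, 7.82 and 7.65 in the SIRT7 KO livers, against 8.07, 8.22, 8.21 and 8.29 in the WT livers. The genotypes were apart, and it was called at -0.46 ± 0.080 (SE, adjusted p = 0.0477) and in all 8 fits that left out 1 array. The called probe sets of Baz1b and Baz2a passed in 3 and 0 of these fits. The brightest probe sets of Baz1b and Baz2a differed by -0.19 (adjusted p = 0.551) and -0.083 (adjusted p = 0.669). Among the sirtuins 5 of 7 were measured, and none but Sirt7 was called, with Sirt3, a mitochondrial deacetylase, next (-0.18, adjusted p = 0.426).

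Markers of other liver cells were read beside these values. Means over the marker lists overlapped between SIRT7 KO and WT livers for macrophages (9.06 to 9.92 and 8.79 to 9.77, 8 genes), endothelial cells (7.85 to 8.07 and 7.75 to 7.99, 7 genes), stellate cells (7.66 to 8.05 and 7.53 to 7.82, 5 genes) and T and NK cells (5.03 to 5.45 and 5.14 to 5.41, 7 genes). They overlapped also for B cells (5.39 to 5.59 and 5.53 to 6.19, 4 genes), cholangiocytes (4.85 to 4.99 and 4.89 to 4.95, 4 genes) and erythroid cells (6.54 to 6.82 and 6.65 to 6.95, 2 genes). Of the 2 erythroid genes, Hba-a1 lay below the lower quartile of the array, and Alas2 differed by -0.43 (adjusted p = 0.257). Of these markers Lyve1 (1.21, adjusted p = 0.0463) and Dcn (0.41, adjusted p = 0.103) were called higher, and Stab1 (-0.30, adjusted p = 0.132) and Cd3g (-0.39, adjusted p = 0.137) lower. The part of cell makeup in the differences of the chromatin enzymes was not tested.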

How the data were processed

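Liver RNA of 4 SIRT7 KO and 4 WT mice was measured on 1 array each. The authors deposited 1 table of normalized log2 expression values per probe set. RMA is named in the paper's methods and GCRMA in the submitters' processing notes, and which of them made the values is unknown, as are their versions. The values were used as deposited.

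Of 22690 probe sets, 64 controls were left out and 22626 were tested. Names came from the platform annotation: 20380 tested probe sets had 1 gene symbol, 691 several and 1555 none. Entrez IDs of 20351 matched the RefSeq table of GRCm38.p6, with 0 symbols updated.

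Genotypes were compared with limma 3.58.1 in R 4.3.3 (lmFit and eBayes, two-sided, genotype as the only term), and p-values were adjusted by Benjamini-Hochberg across the 22626 probe sets. Intervals cover 95% under the moderated test. Single array measures were compared by exact permutation. The number of arrays limits the precision.

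Values on every array are given for Sirt7 and for each gene with a called probe set, with genotypes that did not overlap by the brightest probe set, or among the 12 with the smallest p. Of each wider list, the genes called and the 2 with the smallest p are named, mostly by their difference alone. Values of Dnmt1, Ezh2, Setd4, 1423065_at and the dimmer called probe sets of the wider lists were added after they were seen. The genes and lists were chosen with earlier results of these data known. Alternatives were quantile normalization, median centring, trend and robust variance, array weights, a filter on dim probe sets, the mean of a gene's probe sets, a threshold of 0.05, the replicate number as a block, and leaving out each array.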

Additional observations from a re-analysis of the deposited data

Results flagged for a closer look

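Within a genotype, 1 of the 4 arrays stood apart from the other 3 for 5 of the 60 sets of values tested (30 genes in each genotype), by the gap to the nearest array as a share of the whole range, beyond the 95% limit of Dixon's ratio for 4 values. Chance flags about 1 in 20 such sets. Hdac3 on SIRT7 KO array 3 was at 8.31, with the other SIRT7 KO arrays at 8.43 to 8.45 (share 0.842). Crebbp on SIRT7 KO array 4 was at 7.34, with the others at 7.60 to 7.65 (share 0.860). Brd3 on SIRT7 KO array 1 was at 7.95, with the others at 7.74 to 7.77 (share 0.854). Hdac5 on WT array 4 was at 6.58, with the other WT arrays at 7.03 to 7.09 (share 0.882). Ezh1 on WT array 1 was at 7.60, with the others at 7.40 to 7.43 (share 0.857). None of these 5 genes was called by its brightest probe set, with all arrays or without any single array.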

How the results depend on the processing

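Of 209 alternative values of the 14 genes whose arrays are given, 190 kept direction and side of the threshold and 0 reversed; 13, all of Suz12, were no longer past it and 6, of Brd2 and Kdm5a, newly were. The count of 1 called gene was 0 after quantile normalization, median centring, trend and robust variance, and at 0.05; it was 2 with array weights (Suz12 and Kdm5a), 3 among bright probe sets only (Suz12, Brd2 and Kdm5a) and 1 for the mean of probe sets (Kdm5a). Leaving out 1 array gave 0 to 1 (Brd2 without WT array 3, Kdm5a without SIRT7 KO array 1). The 4 called probe sets of the list were 2 after quantile normalization, 7 with array weights, 0 at 0.05, and 0 (without SIRT7 KO array 4) to 4 without 1 array, and 1 when WT array 1, WT array 2 or SIRT7 KO array 2 was left out. The 4 called genes of the wider lists were 13 among bright probe sets, 1 (Sirt7) at 0.05 and 1 to 3 without 1 array (1 or 2 for each array but WT array 3). All called probe sets, 975, were 156 at 0.05 and 222 (without WT array 1) to 900 (without WT array 4) without 1 array, the next lowest being 267 (SIRT7 KO array 4 left out) and 460 (SIRT7 KO array 2 left out); it was 503 with WT array 2 left out, 576 with SIRT7 KO array 1 left out and 594 with SIRT7 KO array 3 left out. Calls over the whole array also rose from 975 in some of these settings. With trend and robust variance they were 994, 550 lower and 444 higher. With array weights they were 1331, 759 lower and 572 higher. Among bright probe sets only they were 1351, 837 lower and 514 higher, out of fewer probe sets tested. The higher counts of the lists in that setting thus came with more calls over the whole array. The replicate block gave 0 called genes, 1 probe set (Kmt2a), 2 genes of the wider lists (Ing3 and Sirt7) and 628 of all probe sets. Same-numbered arrays deviated together with r of 0.255, -0.252, -0.163 and 0.145, where differently numbered arrays gave r of -0.437 to 0.314. Whether same-numbered samples share a litter or a batch cannot be told from these values. The cause of the shifts in the counts was not tested. The number of arrays and low signal (Setd7, Hdac9) limit what could be seen.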
